A study of Mus musculus with 25 samples.

Results

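The genes examined here are 10 of the 43411 in the deposited table, and all 10 had enough counts to be tested. They were taken from the table by symbol, as a list drawn up with earlier results of these data known, and comprise the Toll-like receptors Tlr1, Tlr2, Tlr3, Tlr4, Tlr7, Tlr9 and Tlr13, the lipopolysaccharide co-receptor Cd14, the adaptor Myd88 and the kinase-family inhibitor Irak3. They were measured by RNA sequencing in microglia, the resident macrophages of the brain, sorted as CD11b+ and CD45med cells from 3-month-old mice of both sexes. The question was whether loss of Bin1, a membrane-bending adaptor protein and Alzheimer risk gene, in neurons changes gene expression in the microglia around them. Homozygous Bin1-cKO mice (Bin1 flox/flox with Thy1-Cre, n = 10) and heterozygous Bin1-cKO mice (Bin1 flox/wt with Thy1-Cre, n = 7) were compared with WT littermates (Bin1 flox/wt without Cre, n = 6). All mice are from a cross of the strains B6.129S6-Bin1tm2Gcp/J and FVB/N-Tg(Thy1-cre)1Vln/J. Every mouse, the WT littermates included, therefore carries at least 1 floxed Bin1 allele, and the homozygous mice carry 2. The Thy1 promoter was used to drive Cre in neurons, whereas the RNA is from sorted microglia. Whether Cre also acted in the sorted cells was not tested.

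Toll-like receptors are membrane proteins that recognize microbial molecules and debris of damaged cells. Some, such as Tlr1, Tlr2 and Tlr4, sit on the cell surface and bind lipids and lipoproteins, whereas Tlr3, Tlr7, Tlr9 and Tlr13 sit in endosomes and bind nucleic acids. Most signal through Myd88, which recruits IRAK kinases and leads to activation of NF-kB and MAP kinases and to transcription of cytokines and chemokines. Irak3 lacks full kinase activity and restrains this chain after it has been set off. In the brain, microglia are the main cells that express these receptors.

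Total counts per mouse ranged from 10812887 to 16734746, and counts of the 10 genes in a mouse lay between 30 and 12116. CPM are counts scaled to library size with TMM normalization. On this scale WT littermates had 699 ± 88.3 CPM of Bin1 (SD, n = 6), and the heterozygous mice 692 ± 40.6 (SD, n = 7). Homozygous mice had 481 ± 130.2 CPM (SD, n = 10), and Bin1 fell by 0.60 on the log2 scale against WT (adjusted p = 0.0017) and by 0.53 against heterozygous mice (adjusted p = 0.0015). All WT and heterozygous mice have animal numbers in the range 02xx, whereas 6 homozygous mice are in 03xx and 4 in 04xx, so genotype and number range cannot be told apart. In 4 homozygous mice, all numbered 03xx, Fos (an immediate-early gene) lay between 824 and 1459 CPM, against at most 7.0 CPM in the other 6 and at most 1.73 CPM in WT littermates. The defining microglia markers were present in every group, with Tmem119 at 8789 ± 1048 CPM (SD, n = 6) in WT and 6560 ± 379 CPM (SD, n = 10) in homozygous mice.

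Cd14 had by far the highest level of the 10 genes, and Irak3 the lowest. Levels between genes were compared as CPM per kb of annotated exons. In WT littermates Cd14 stood at 407 ± 32.6 CPM per kb (SD, n = 6), which was 3.83 times the level of Tlr13, at 106 ± 19.3. The next were Tlr2 at 63.9 ± 8.76 and Tlr7 at 63.0 ± 8.87 CPM per kb, 2 genes whose ranges overlapped and of which Tlr2 was higher in only 4 of 6 mice. Myd88 followed at 44.8 ± 2.89 CPM per kb, and its range touched that of Tlr7 although it was lower in 6 of 6 mice. Tlr4 (27.3 ± 3.38), Tlr3 (23.6 ± 4.51) and Tlr1 (16.0 ± 1.96 CPM per kb) formed a series of overlapping neighbours. Tlr9 at 3.43 ± 0.611 and Irak3 at 1.07 ± 0.296 CPM per kb stood apart from these and from each other. The order of the means was the same in heterozygous and homozygous mice except that Tlr7 changed places with Tlr2. In homozygous mice the ranges of Tlr9 and Irak3 overlapped. Tlr3 and Tlr1 were close there, with a ratio of 1.02 and Tlr3 higher in 5 of 10 mice. In WT this ratio was 1.48, with Tlr3 higher in 6 of 6.

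**Figure D1:**
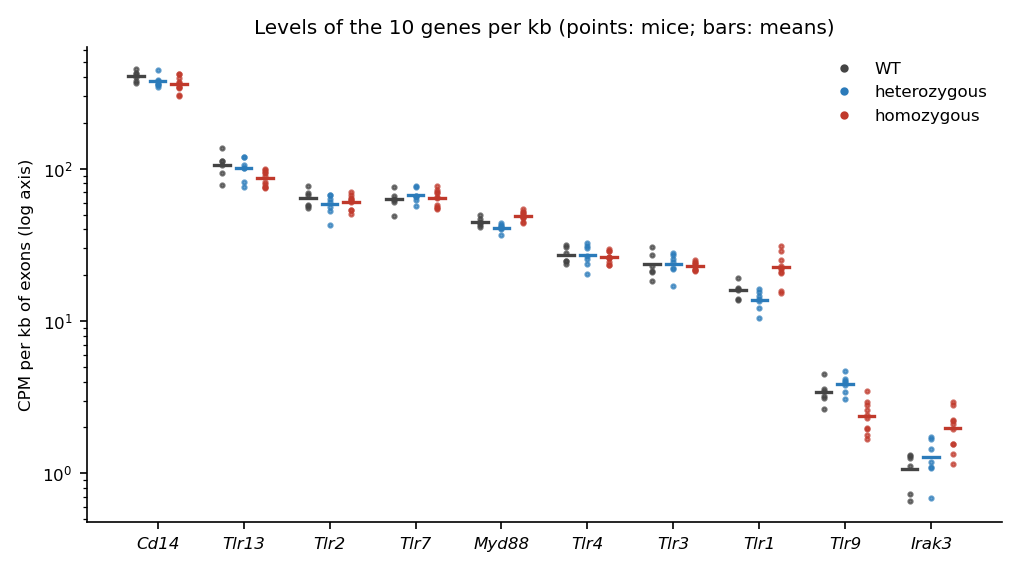
Levels of the 10 genes in CPM per kb of exons (vertical log axis), with a point for each mouse and a bar for the mean of each genotype. In WT littermates the means run from 407 for Cd14 to 1.07 for Irak3, and the Tlr9 and Irak3 points overlap only in homozygous mice.

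In homozygous Bin1-cKO microglia, Irak3 and Tlr1 rose and Tlr9 fell against WT, and the other 7 genes did not pass the test. These 3 of 10 genes had an adjusted p below 0.05 (edgeR's quasi-likelihood test, Benjamini-Hochberg over 12908 genes), where 12.7% of all genes tested did (5.66% higher and 7.09% lower). DEGs also had to change more than 1.5-fold, and of the 10 genes only Irak3 did, where 3.40% of all genes were DEGs. No gene of the 10 separated all homozygous from all WT mice, as 1.81% of all genes did. The median log2 fold change of the 10 genes was -0.04, beside 0.01 over all genes tested. Between homozygous and heterozygous mice, Tlr1, Tlr9 and Irak3 were DEGs, 3 of 10 where 6.62% of all genes were called (2.32% higher and 4.31% lower). Myd88 passed the adjusted p there as well, which made 4 of 10 beside 22.8% of all genes. Both comparisons share the homozygous mice. In a bulk sample, a change in the number of cells that express a gene and a change in its RNA per cell cannot be told apart.

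**Figure D2:**
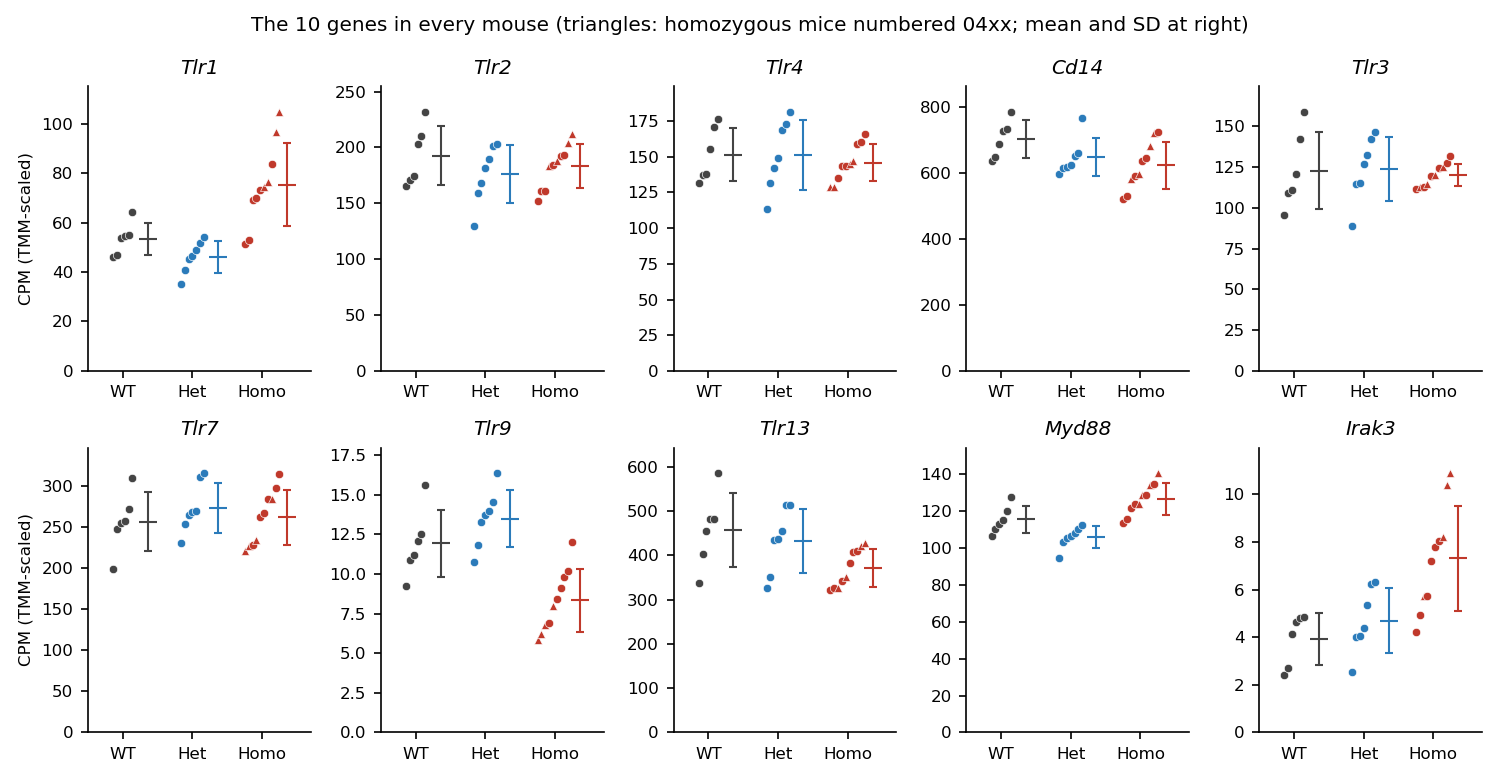
CPM of each of the 10 genes (vertical axes from 0) in every mouse by genotype, with triangles for homozygous mice numbered 04xx and the mean and SD beside each group (WT n = 6, heterozygous n = 7, homozygous n = 10). Tlr1 and Irak3 lie higher and Tlr9 lower in most homozygous mice, while Tlr2, Tlr3, Tlr4 and Tlr7 overlap throughout.

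Tlr1, which pairs with Tlr2 on the cell surface to bind triacylated lipoproteins (ENSMUSG00000044827.8, GRCm38 chromosome 5 from 64924679 to 64933563, minus strand), is the surface receptor that differed. It had a lowest, median and highest value of 46.3, 54.0 and 64.2 CPM in WT littermates, 35.1, 46.5 and 54.2 CPM in heterozygous mice and 51.2, 73.7 and 105 CPM in homozygous mice. Of the homozygous mice, 8 of 10 lay above all WT and all heterozygous mice, and the other 2 lay among them. At least 8 of 10 homozygous mice lay above all WT mice in 3.82% of all genes tested, and above all heterozygous mice in 5.35%. Against WT it rose by 0.52 on the log2 scale (standard error 0.12, adjusted p = 0.0068), under the fold change of a DEG, and by 0.69 against heterozygous mice (standard error 0.12, adjusted p = 0.00027).

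The Tlr1 values may depend in part on how reads were divided with Tlr6, its neighbour on chromosome 5 and a partner of Tlr2 for diacylated lipoproteins. How far the division moved them was not tested. In the annotation (GENCODE vM21), 454 windows of 50 bases, the read length, occur in transcripts of both genes, and 15.4% of the windows of Tlr1 occur in some other gene. The longest identical run is 229 bases of coding sequence, at chromosome 5 from 64925537 to 64925765 in Tlr1 and from 64953828 to 64954056 in Tlr6 (GRCm38, minus strand, in the last exon of each). It is printed because no read inside it can be assigned to either gene.
Tlr1 and Tlr6, shared run: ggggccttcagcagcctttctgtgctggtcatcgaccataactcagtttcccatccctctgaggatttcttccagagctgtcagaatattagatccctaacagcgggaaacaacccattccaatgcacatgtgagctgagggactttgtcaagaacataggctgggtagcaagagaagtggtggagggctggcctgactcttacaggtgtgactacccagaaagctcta
Over the 60 bases centred on its 3′ end, the 2 genes differ at 1 base.

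Tlr6 itself stood at 81.5 ± 13.6 CPM (SD, n = 6) in WT and 66.3 ± 8.85 CPM (SD, n = 10) in homozygous mice, with a log2 fold change of -0.30 that did not pass (adjusted p = 0.066). Of the summed CPM of the pair, Tlr1 made up 39.7% ± 2.04 in WT littermates (SD, n = 6) and 38.8% ± 4.19 in the heterozygous group (SD, n = 7). Its share was 52.7% ± 6.62 in the homozygous group (SD, n = 10). In 9 of 10 homozygous mice this share lay above that of all other mice. When both genes were counted as one, the call was lost, and the pair differed by 0.08 on the log2 scale from WT (standard error 0.096, adjusted p = 0.63) and by 0.24 from heterozygous mice (adjusted p = 0.057). Tlr6 had more CPM than Tlr1 in WT and a negative fold change. The sum would thus change less than Tlr1 even with every read assigned rightly, so it does not test the division of reads. The summed level was 135 ± 19.6 CPM in WT (SD, n = 6) and 142 ± 18.2 CPM in homozygous mice (SD, n = 10).

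**Figure D3:**
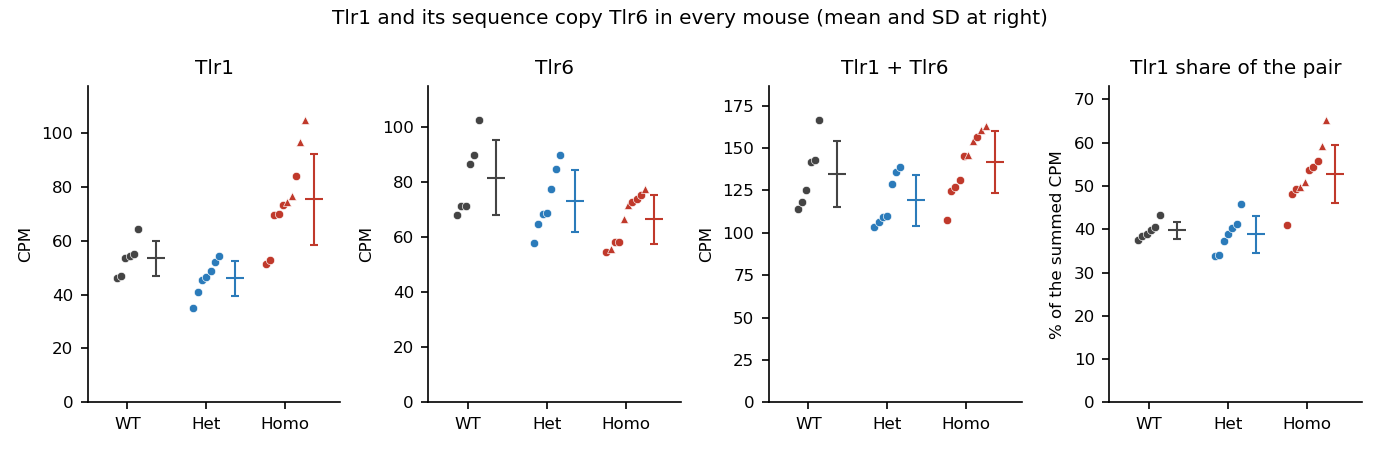
CPM of Tlr1, of Tlr6 and of both summed, and the share of Tlr1 in the sum in percent (vertical axes from 0), in every mouse by genotype, with the mean and SD at the right of each group. The share of Tlr1 is higher in 9 of 10 homozygous mice than in any other mouse, while the summed CPM of WT and homozygous mice overlap.

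The other surface genes did not pass the test in any comparison. Tlr2, the common partner of Tlr1 and Tlr6, stood at 193 ± 26.4 CPM in WT littermates (SD, n = 6) and 183 ± 19.6 CPM in the homozygous group (SD, n = 10). Its log2 fold change was -0.07 against WT with a 95% interval of -0.27 to 0.13 (adjusted p = 0.69), and 0.05 against heterozygous mice. Tlr4, the lipopolysaccharide receptor, ranged from 132 to 176 CPM in WT and from 129 to 166 CPM in homozygous mice, with a log2 fold change of -0.05 and an interval of -0.24 to 0.14. These intervals leave room for changes in either direction, but each excludes a fold change of 1.5. Cd14, which hands lipopolysaccharide to Tlr4, ranged from 637 to 787 CPM in WT and from 522 to 726 CPM in homozygous mice. Of the latter, 5 of 10 lay below all WT mice, and the log2 fold change was -0.16 (95% interval -0.32 to -0.01, adjusted p = 0.15). Cd14 lies 4.29 Mb from Bin1 on chromosome 18, and the part of this linkage in its values was not tested.

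Among the endosomal receptors, Tlr9 was the one that fell. Tlr9, the receptor for unmethylated CpG DNA (ENSMUSG00000045322.10, GRCm38 chromosome 9 from 106222598 to 106226883, plus strand), had a lowest, median and highest value of 9.24, 11.7 and 15.6 CPM in WT littermates. The same values were 10.7, 13.7 and 16.3 CPM in heterozygous mice and 5.85, 8.20 and 12.0 CPM in homozygous mice. Of the homozygous mice, 7 of 10 lay below all WT mice and 9 of 10 below all heterozygous mice. Among all genes tested, 7.27% had at least 7 of 10 homozygous mice below all WT mice, and 2.84% at least 9 of 10 below all heterozygous mice. The log2 fold change was -0.51 against WT (standard error 0.15, adjusted p = 0.026) and -0.70 against heterozygous mice (standard error 0.14, adjusted p = 0.0012). Counts of Tlr9 were low, between 78 and 208 in a mouse, and none of its 50-base windows occurs in another annotated gene. The call against WT was lost without WT male Bin1-WT-M-0211 (adjusted p = 0.088), without Bin1-WT-M-0222 (adjusted p = 0.052) and in a fit of the 2 genotypes alone (adjusted p = 0.059).

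Tlr13, which binds bacterial ribosomal RNA and was the most abundant receptor here, ranged from 338 to 585 CPM in WT littermates and from 321 to 429 CPM in homozygous mice. Only 3 of 10 homozygous mice lay below all WT mice, and the log2 fold change of -0.30 did not pass (95% interval -0.52 to -0.08, adjusted p = 0.071). DESeq2 gave the same fold change with an adjusted p of 0.045. Tlr7, the receptor for single-stranded RNA, had 257 ± 36.2 CPM in WT (SD, n = 6) and 262 ± 33.2 CPM in homozygous mice (SD, n = 10), a log2 fold change of 0.03 with an interval of -0.17 to 0.22. Tlr3, the receptor for double-stranded RNA and the one that signals without Myd88, had 123 ± 23.5 CPM in WT (SD, n = 6) and 120 ± 6.93 CPM in homozygous mice (SD, n = 10). Its log2 fold change was -0.03 with an interval of -0.24 to 0.17. All homozygous values of Tlr3 lay inside the WT range.

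Myd88, the adaptor of the pathway (ENSMUSG00000032508.8, GRCm38 chromosome 9 from 119335934 to 119341411, minus strand), differed between homozygous and heterozygous mice. Its lowest, median and highest values were 107, 114 and 128 CPM in WT littermates, 94.5, 106 and 113 CPM in heterozygous mice and 113, 126 and 140 CPM in homozygous mice. All 10 homozygous mice lay above all heterozygous mice, as in 1.36% of all genes tested, and 5 of 10 lay above all WT mice. Against heterozygous mice Myd88 rose by 0.25 on the log2 scale (standard error 0.050, adjusted p = 0.0011), a small change that held in 23 of 23 fits with 1 mouse left out and was lost with neuron markers in the fit (0.24, adjusted p = 0.11). Against WT the log2 fold change of 0.15 did not pass with edgeR (95% interval 0.04 to 0.26, adjusted p = 0.067) and passed with DESeq2 (adjusted p = 0.040). Scaled by library totals alone, it was 0.25 and passed (adjusted p = 0.0060). Myd88 lies within the annotated span of Slc22a14 on its own strand and overlaps Acaa1a on the opposite strand, and 7.42% of its 50-base windows occur there. The library kit does not mark strand, so such reads cannot be told apart, and Acaa1a had a log2 fold change of 0.06 (adjusted p = 0.70) against WT.

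Irak3, the inhibitory member of the IRAK family (ENSMUSG00000020227.8, GRCm38 chromosome 10 from 120141648 to 120202130, minus strand), had the largest fold change of the 10 genes against WT. Its lowest, median and highest values were 2.43, 4.39 and 4.84 CPM in WT littermates, 2.53, 4.38 and 6.32 CPM in heterozygous mice and 4.22, 7.50 and 10.9 CPM in homozygous mice. Of the homozygous mice, 9 of 10 lay above all WT mice, as in 1.79% of all genes tested, and 6 of 10 above all heterozygous mice. The log2 fold change was 0.87 against WT (standard error 0.23, adjusted p = 0.014) and 0.68 against heterozygous mice (standard error 0.22, adjusted p = 0.027). Against WT the call held in 23 of 23 fits with 1 mouse left out, with an adjusted p of at most 0.043. Against heterozygous mice it was lost without the male Bin1-Het-M-0227 (adjusted p = 0.072). Irak3 is at a low level, with counts from 30 to 147 in a mouse. The antisense gene Gm47009 overlaps it, and Tmbim4, on the opposite strand, shares 2.56% of its windows and had a log2 fold change of -0.19 (adjusted p = 0.070). Irak3 was among the DEGs that the study listed for these mice, so its call is not independent evidence.

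**Figure D4:**
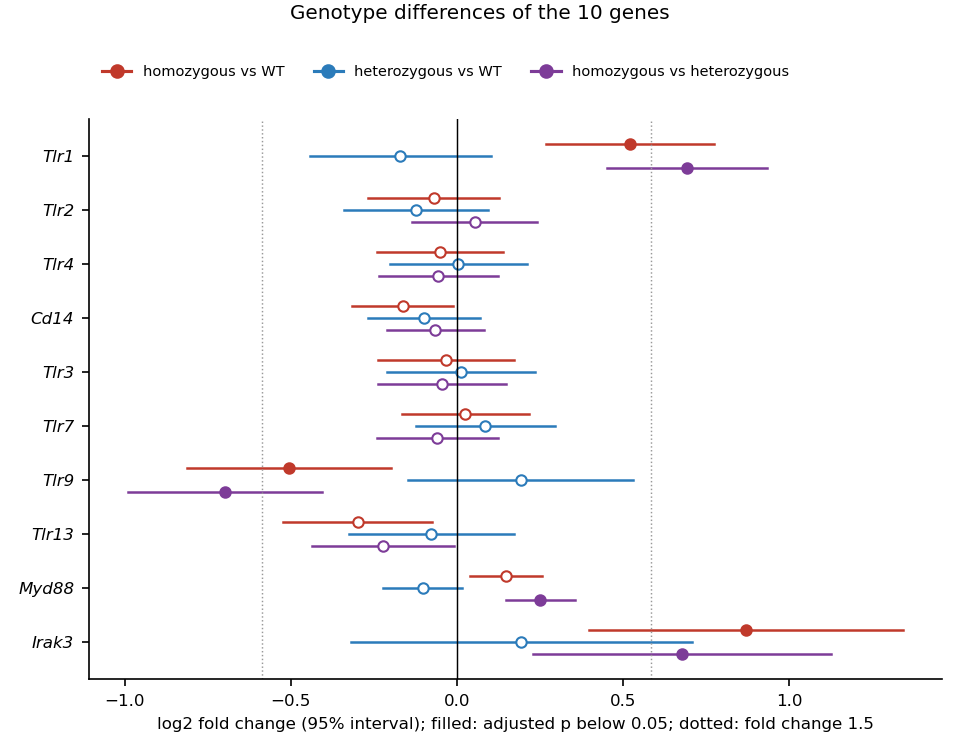
Log2 fold changes of the 10 genes (horizontal axis) with 95% intervals for 3 genotype comparisons, filled where the adjusted p is below 0.05, with dotted lines at a fold change of 1.5. Tlr1, Tlr9 and Irak3 are filled against both WT and heterozygous mice, Myd88 only against heterozygous mice, and no point of heterozygous against WT mice is filled.

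Heterozygous mice did not differ detectably from WT littermates in any of the 10 genes. edgeR called 0 of 10 at an adjusted p below 0.05, as DESeq2 and limma-voom did, and 0 of 10 had an unadjusted p below 0.05. Over all genes, 0% passed the adjusted threshold and 7.73% the unadjusted one. Log2 fold changes lay between -0.17 (Tlr1) and 0.19 (Irak3). For Irak3 the 95% interval of -0.32 to 0.71 includes a fold change of 1.5, whereas for Tlr1 it ran from -0.44 to 0.10. For Tlr9 it was -0.15 to 0.53, so the depth and number of mice do not show that these 2 genotypes are alike.

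Among the homozygous mice, the mean levels of Tlr1, Tlr9 and Irak3 lay farther from WT in those numbered 04xx, a difference between the ranges that did not pass its test. In these 4 mice Tlr1 was at 88.1 ± 15.0 CPM, Tlr9 at 6.72 ± 0.933 CPM and Irak3 at 8.80 ± 2.35 CPM (SD, n = 4). In the 6 mice numbered 03xx the levels were 66.7 ± 12.5, 9.41 ± 1.73 and 6.32 ± 1.6 CPM (SD, n = 6). The 4 mice numbered 04xx did not overlap with WT littermates in any of these 3 genes, as in 6.39% of all genes. Tested against each other within the homozygous genotype, the 2 ranges differed in 0 of 10 genes at an adjusted p below 0.05, beside 0.00805% of all genes, and in 3 of 10 at an unadjusted p below 0.05, beside 9.62%. Those 3 were Tlr1, Tlr9 and Tlr2, not Irak3. DESeq2 also called 0 of 10. The log2 differences (04xx minus 03xx) were 0.38 for Tlr1 (adjusted p = 0.43), -0.48 for Tlr9 (adjusted p = 0.45) and 0.47 for Irak3 (adjusted p = 0.60). With the mice numbered 03xx alone against WT, none of these genes passed, at adjusted p = 0.070 for Tlr1, 0.16 for Tlr9 and 0.083 for Irak3. With the mice numbered 04xx alone against WT, Tlr1, Tlr9 and Irak3 were all DEGs, where 2.50% of all genes were, with log2 fold changes of 0.75, -0.84 and 1.16.

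The calls of Tlr1, Tlr9 and Irak3 against WT held without the 4 homozygous mice with high Fos. Without them, 3 of 10 genes were DEGs against WT in place of 1, beside 2.52% of all genes, and the log2 fold changes were 0.59 for Tlr1 (adjusted p = 0.0097), -0.70 for Tlr9 (adjusted p = 0.0075) and 0.95 for Irak3 (adjusted p = 0.027). Against heterozygous mice Irak3 no longer passed (log2 fold change 0.74, adjusted p = 0.051). The 4 mice left out are all numbered 03xx, so their removal also raised the share of homozygous mice numbered 04xx. High Fos and number range cannot be told apart in these fits. Neuron markers moved with genotype in all homozygous mice. At the adjusted p, 5.66% of all genes rose and 7.09% fell against WT, and the counts of the marker lists are read beside these shares. Of 7 neuron markers tested of 10 listed, 4 fell and 0 rose against WT, and the sum of the list lay between 4.89 and 9.21 CPM in homozygous and between 12.3 and 38.1 CPM in WT mice, with Gad2 listed at 0. With the mean log2 level of these markers in the fit, 0 of 10 genes were DEGs against WT, beside 0.263% of all genes. At the adjusted p alone 0 of 10 passed as well, for which the share of all genes is not given here. The log2 fold changes in that fit were 0.55 for Tlr1, -0.67 for Tlr9 and 0.73 for Irak3. The groups do not overlap in this sum, so it and the genotype cannot be told apart. Of 5 monocyte markers tested of 8 listed, 1 rose (Ccr2, log2 fold change 1.28, adjusted p = 0.00081), and the sum of the list was 8.31 to 15.0 CPM in WT and 11.8 to 29.1 CPM in homozygous mice. Nr4a1 stands in this list and in that of the immediate-early genes. No border macrophage marker of 8 tested passed, and Mrc1 was listed at 0 in every mouse. Of the 14 microglia markers 8 fell and 0 rose, and their sum was 74973 to 105168 CPM in WT and 65521 to 76397 CPM in homozygous mice. Itgam, which is in this list and encodes the sorting marker CD11b, was at 1866 ± 381 CPM (SD, n = 6) in WT. In homozygous mice it was at 1230 ± 152 CPM (SD, n = 10). Of 5 astrocyte markers tested 1 fell (Aldoc, log2 fold change -1.61, adjusted p = 0.0062), and the sum of that list was 235 to 268 CPM in WT and 231 to 310.3 CPM in homozygous mice. Of 5 oligodendrocyte markers 2 fell, Mbp and Mobp, with sums of 179 to 253 and 153 to 209 CPM. Of 3 endothelial markers 1 fell, Pecam1, with sums of 41.4 to 77.7 and 31.2 to 59.8 CPM and Cldn5 listed at 0. None of 7 neutrophil markers passed, at a median log2 fold change of 1.67, and their sums were 643 to 999 CPM in WT and 618 to 1123 CPM in homozygous mice. Of 21 immediate-early genes tested 15 were DEGs, all higher, beside 1.65% of all genes. The part of these shifts in the values of the 10 genes was not tested.

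Males and females did not differ detectably in the 10 genes. The sex difference passed in 0 of 10 genes with edgeR and with DESeq2, beside 0.0852% of all genes, with 1 of 10 at an unadjusted p below 0.05 beside 5.83%. A difference between the sexes in the homozygous against WT change passed in no gene (interaction term, 0 of 10 with edgeR and DESeq2, 0% of all genes, and 0 of 10 at an unadjusted p below 0.05 beside 4.99%). Irak3 had a log2 fold change of 0.66 in females (standard error 0.36) and 1.04 in males (standard error 0.29). For Tlr1 the values were 0.45 and 0.57, and for Tlr9 -0.36 and -0.55. Only 2 WT mice are female.

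Of the 7 lists of the wider pathway, that of products the pathway induces had the largest median change against WT. Single genes did not follow this order, as the component Map3k8 rose more than the induced product Il1a. The lists hold 77 other genes, of which 68 were tested. Against WT, 18 of these rose and 2 fell, with a median log2 fold change of 0.11. Over all genes 5.66% rose and 7.09% fell, and the counts of each list are read beside these shares. Without the induced products, 9 of 55 rose and 2 fell, with a median of 0.07. The study's DEGs on these mice include Nfkbiz and Map3k8, so these are not independent evidence either.

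Of 3 other Toll-like receptors tested of 5 listed, 1 fell. This was Tlr5, the flagellin receptor, at 24.8 ± 4.08 CPM (SD, n = 6) in WT and 19.4 ± 3.22 CPM (SD, n = 10) in homozygous mice (log2 fold change -0.36, adjusted p = 0.026). Tlr8 and Tlr11 were near 0 in all genotypes and were not tested. Of 8 co-receptors and chaperones, 1 fell and 0 rose. Cnpy3, a chaperone of Toll-like receptors in the endoplasmic reticulum, was at 299 ± 33.5 CPM (SD, n = 6) in WT and 237 ± 14.7 CPM (SD, n = 10) in homozygous mice (log2 fold change -0.35, adjusted p = 0.0020). Among 5 adaptors 1 rose, the Tlr4 adaptor Ticam2, with a log2 fold change of 0.31 (adjusted p = 0.040).

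The kinase and ubiquitin ligase list had 6 genes that rose and none that fell among 19 tested, with a median log2 fold change of 0.12. The DEGs were Map3k8, a kinase that links NF-kB signaling to ERK, and Tab3, a subunit of the TAK1 complex. Map3k8 went from 10.1 ± 4.09 CPM (SD, n = 6) in WT to 19.4 ± 4.98 CPM (SD, n = 10) in homozygous mice (log2 fold change 0.98, adjusted p = 0.0025). For Tab3 the levels were 7.08 ± 2.52 and 11.2 ± 2.72 CPM (log2 fold change 0.71, adjusted p = 0.020). Of 11 inhibitors 1 rose, Il1rl1, the receptor for IL-33, whose log2 fold change was 0.84 (adjusted p = 0.024). Of 9 transcription factors 1 rose, Irf7, an interferon regulatory factor, with a log2 fold change of 0.68 (adjusted p = 0.048), and no NF-kB subunit passed. The Irf7 mean went from 4.26 to 8.39 CPM in males and from 4.17 to 5.00 CPM in females. Without the 4 homozygous mice of highest Fos, 1 of 19 kinases and ligases was a DEG, beside 2.52% of all genes. In that smaller fit 3 of the 19 passed the adjusted p, and 0 of 5 adaptors, 0 of 11 inhibitors and 0 of 9 transcription factors did. The share of all genes at the adjusted p alone is not given for that fit, so these counts have none beside them.

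Of 13 induced products tested of 18 listed, 9 were DEGs, all higher in homozygous mice, beside 1.65% of all genes, and the median log2 fold change was 1.24. The chemokine gene Ccl2 lay between 1.08 and 2.02 CPM in WT and between 3.16 and 32.8 CPM in homozygous mice, with no overlap, as in 0.674% of all genes (log2 fold change 3.36, adjusted p = 0.00035). Il1a, a cytokine gene, was between 101 and 149 CPM in WT and between 168 and 318 CPM in homozygous mice, also with no overlap (log2 fold change 0.85, adjusted p = 0.00013). Nfkbiz, an inducible IkB family member, and Ccl3, a chemokine gene, had log2 fold changes of 1.68 and 2.40. The highest Ccl2 levels, 27.0 to 32.8 CPM, were in the 4 mice with high Fos, and without these mice 7 of 12 induced products were DEGs, beside 2.52% of all genes, with a median log2 fold change of 0.91. Socs3 stands in this list and in that of the immediate-early genes. With the neuron markers in the fit, 0 of 13 were DEGs, beside 0.263% of all genes, while their median log2 fold change was 1.33.

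**Figure D5:**
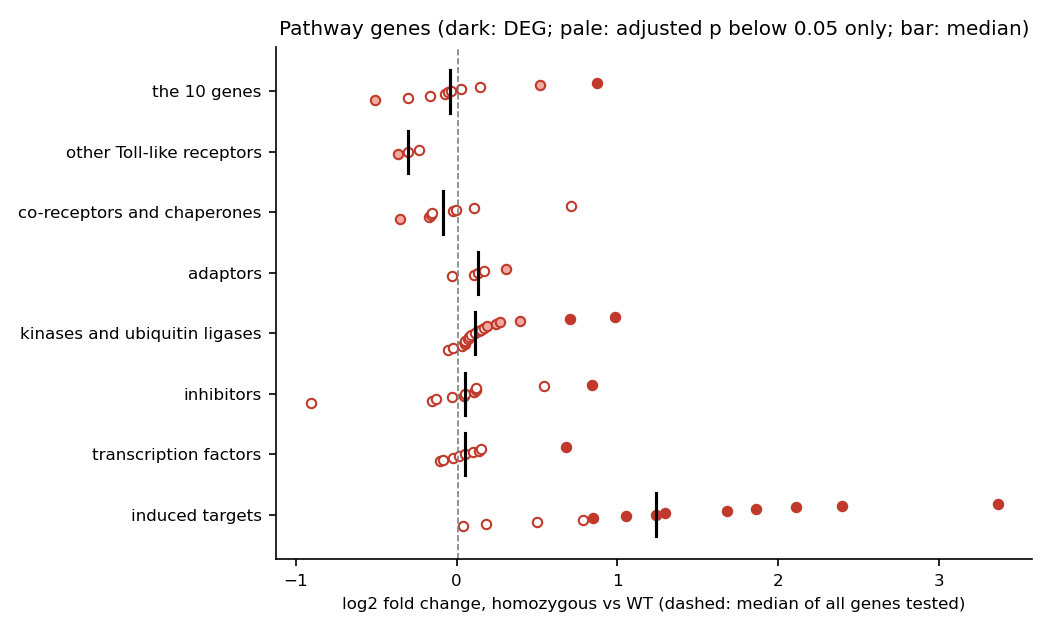
Log2 fold change of homozygous against WT mice (horizontal axis) for each tested gene of the 10 and of the 7 pathway lists, dark where the gene is a DEG, pale where only the adjusted p is below 0.05, with a bar for the median of each list. The median of the induced products is 1.24, while the medians of the other lists lie between -0.30 and 0.13.

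The levels of the 10 genes were also compared from mouse to mouse. After the genotype and sex means were removed, 39 of 45 pairs of the 10 genes had a positive Pearson r of log2 CPM over the 23 mice, with a median of 0.31. The 5 receptors Tlr2, Tlr3, Tlr4, Tlr7 and Tlr13, a set chosen after its values were seen, had r between 0.38 and 0.76 in their 10 pairs. Genes outside the 10 were more like some of them than any member was, such as Atp6ap1 for Tlr2 (r = 0.93), Calu for Tlr3 (r = 0.91) and P2rx7 for Tlr13 (r = 0.91), also chosen after their values were seen. All points share the library and its scaling. The genes most like Irak3 among the 12908 tested were Tmem229a (r = 0.77), Foxn2 (r = 0.76) and Mmp2 (r = 0.74), each over 23 mice.

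For the 4 genes that passed a test, the stretch around the transcription start (250 bases before to 50 after, RefSeq, GRCm38.p6) is printed to show which motif letters it holds. The RefSeq table has such a stretch for 7 of the 10 genes. The motifs were GGG and CC with 5 bases between them (NF-kB), GAGGAAGT (PU.1, the macrophage lineage factor), GAAA repeated after 2 bases (an interferon response element) and TGANTCA (AP-1), searched on both strands, with matches in capitals. They occur in 50.8%, 3.20%, 3.44% and 7.81% of 32851 such stretches.
Irak3, chr10:120201548-120201847, minus strand: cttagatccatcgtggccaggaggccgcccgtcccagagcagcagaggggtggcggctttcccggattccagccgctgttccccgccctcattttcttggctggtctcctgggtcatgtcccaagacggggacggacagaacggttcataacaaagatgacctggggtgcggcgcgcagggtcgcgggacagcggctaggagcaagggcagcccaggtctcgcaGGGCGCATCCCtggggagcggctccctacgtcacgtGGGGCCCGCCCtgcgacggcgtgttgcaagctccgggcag
Tlr1, chr5:64933509-64933808, minus strand: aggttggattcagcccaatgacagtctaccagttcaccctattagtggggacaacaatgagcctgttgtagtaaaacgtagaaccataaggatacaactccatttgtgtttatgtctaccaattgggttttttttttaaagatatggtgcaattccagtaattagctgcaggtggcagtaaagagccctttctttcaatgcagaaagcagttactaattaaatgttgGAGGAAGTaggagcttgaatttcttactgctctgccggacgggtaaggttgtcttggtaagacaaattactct
Tlr9, chr9:106222348-106222647, plus strand: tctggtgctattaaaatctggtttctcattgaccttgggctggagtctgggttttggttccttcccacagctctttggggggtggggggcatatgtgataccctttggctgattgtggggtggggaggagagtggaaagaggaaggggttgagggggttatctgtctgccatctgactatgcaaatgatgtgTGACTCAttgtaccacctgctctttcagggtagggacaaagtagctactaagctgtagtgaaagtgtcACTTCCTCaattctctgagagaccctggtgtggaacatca
Myd88, chr9:119339969-119340268, minus strand: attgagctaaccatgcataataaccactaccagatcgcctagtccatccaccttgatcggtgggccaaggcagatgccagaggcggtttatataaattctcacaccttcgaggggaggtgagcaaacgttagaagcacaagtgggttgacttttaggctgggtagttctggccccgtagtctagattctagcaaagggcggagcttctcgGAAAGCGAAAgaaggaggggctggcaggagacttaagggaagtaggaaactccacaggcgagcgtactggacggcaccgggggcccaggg
In Irak3 there are 4 matches to the NF-kB letters, in 2 overlapping pairs that begin at positions -26 and 11 relative to the start. Tlr1 and Tlr9 each hold 1 match to the PU.1 letters, at -23 and 11, and Tlr9 also 1 AP-1 match at -58. Myd88 holds 1 interferon response element match at -40. A second start of Irak3 and one of Tlr1 held none of these letters. A match is a description of the letters in this window.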

How the data were processed

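Microglia of 25 mice were sequenced, and 23 were kept. Per the labels and the paper's methods, the authors aligned single-end reads to mm10 with OmicSoft OSA4, and RSEM with an Ensembl gene model gave the abundance of each gene. Expected counts of 43411 genes were deposited, normalized neither for depth nor for length, and the strand setting and handling of multiply aligned reads are not given in the sources used here. The other 2 mice, removed by the authors for read quality, have no column and were not analysed here. The counts were rounded before fitting. Of the IDs, 42929 were matched to GENCODE vM21 (GRCm38) and 482 were not.

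Genes were filtered with filterByExpr and normalized by TMM, and 12908 were tested with edgeR 4.0.16 (quasi-likelihood, genotype and sex in one fit of 23 mice, Benjamini-Hochberg over all genes tested). The study's thresholds for DEGs were used (adjusted p under 0.05 and more than 1.5-fold). P-values set a difference against the spread between mice. For homozygous mice, that difference also takes in any difference between the number ranges. Alternatives used DESeq2 1.42.0, limma-voom (limma 3.58.1), other scalings, filters, covariates and subsets, and each mouse left out. The code was tested on simulated data. The 10 genes, the pathway and marker lists and the tests were chosen with earlier results of these data known. Named pathway genes were the DEGs of each list, up to 4 with the smallest p, or else the gene with the smallest p. Log2 CPM used a prior count of 2. Count totals from 10812887 to 16734746 limit the precision of genes of a few CPM, such as Irak3.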

Additional observations from a re-analysis of the deposited data

Results flagged for a closer look

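Cd14 in the heterozygous mouse Bin1-Het-F-0219 stood apart from its group. It was at 769 CPM, above the other 6 heterozygous mice, and its gap to the nearest was 0.604 of the range on the log2 scale, past Dixon's 95% value of 0.568. It was 1 of 30 groups examined, and chance marks about 1 in 20.

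Tlr3 was singled out because its values lay on opposite sides of WT in the sexes, a difference that passed no test. Against the WT mean of their sex, all homozygous females lay higher, by a mean of 0.14 on the log2 CPM scale, and all homozygous males lower. The interaction term did not pass (log2 0.26, standard error 0.20, adjusted p = 0.995 from edgeR), and only 2 WT mice are female.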

How the results depend on the processing

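Against WT, 1 of the 10 genes was a DEG, beside 3.40% of all genes. With no fold change threshold 3 passed, beside 12.7%. The DEG count was 3 with the immediate-early covariate (2.16% of all genes) and with the homozygous mice numbered 04xx alone (2.50%). It was also 3 without the 4 homozygous mice of highest Fos (2.52%). It was 0 with the neuron marker covariate (0.263%) and with the mice numbered 03xx alone (3.73%). With library totals alone it was 2. It ranged from 1 to 2 with each mouse left out, and was 2 without Bin1-Homo-M-0328 or Bin1-WT-F-0210. Shares of all genes are not given here for library totals or for the fits with 1 mouse left out. At an adjusted p below 0.05, 5 of 10 genes passed with DESeq2 in place of 3. The 12.7% of all genes is the share with edgeR, and that with DESeq2 is not given here. Against heterozygous mice there were 3 DEGs, beside 6.62% of all genes. These became 1 with the neuron marker covariate and 0 with the mice numbered 03xx alone. Their number ranged from 2 to 3 with each mouse left out (2 without Bin1-Het-M-0227). The shares of all genes in these other fits are not given here. With the mice numbered 03xx alone, Tlr1 and Tlr9 passed the adjusted p but not the fold change threshold. The covariate and subset counts of the induced products were chosen after seeing the data, as was counting Tlr1 with Tlr6, and the 9 DEGs among these products became 0 with the neuron marker covariate, at a median log2 fold change of 1.33 in place of 1.24. In that fit the DEGs over all genes went from 439 to 34 (0.263%). The causes were not tested, but the smaller subsets also hold fewer mice. No fold change that passed its test changed direction in any of these fits. Over single genes, 17 results lost and 5 gained significance and 1621 kept their side of the threshold. No paired analysis was possible because the genotypes share no animal numbers.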
